A study of Mus musculus with 12 samples.

Results

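The genes described here are 10 chemokines of mouse liver: Cxcl1, Cxcl9, Cxcl10, Cxcl12, Cxcl13, Ccl2, Ccl5, Ccl6, Ccl9 and Ccl12. They were given as a list, and each was read from the probe set that names it alone, so that 10 of 22180 measured genes are described. Liver RNA of male mice was hybridised to 12 Affymetrix arrays, and the deposited level of a gene is a log2 value. The mice were 2 months old, and the labels give their strain as C57Bl/6N in some fields and as C57BL/6 Trp53tm1Brn/J in another. All carried p53 fl/fl, that is floxed alleles of the gene for the tumour suppressor p53. Through the tail vein they received equal titres of an adenovirus that expresses Cre recombinase (Adeno-Cre), which deletes the floxed part in the cells it infects, or of one that expresses GFP (Adeno-GFP), which leaves the floxed alleles intact. After 3 days some mice had food withdrawn for 24 h and the others kept free access to it. The 4 groups of 3 arrays are therefore Adeno-GFP fed, Adeno-Cre fed, Adeno-GFP fasted and Adeno-Cre fasted.

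Every mouse received a virus, so each injection comparison sets 1 virus against another, and uninjected liver was not analysed here. Loss of p53 and expression of Cre cannot be told apart in this design. Neither the promoter that drives Cre nor the share of cells infected is stated in the labels, and Trp53 itself was not analysed here, so the labels were not checked on the targeted gene. Beyond a replicate number the labels say little of how samples were taken, so the p-values rest on the spread among these arrays, which may be technical. All 9 measured hepatocyte markers had means above the highest array median of 6.33, and albumin (Alb) was at 13.22 to 13.36. The number of arrays limits the precision of every comparison.

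Chemokines are small secreted proteins that guide leukocytes along a gradient to the tissue that makes them, by binding G protein-coupled receptors on the responding cell. They are grouped by the spacing of their first cysteines, as CXC or CC. Cxcl9 and Cxcl10 are induced by interferon and attract activated T cells and NK cells through the receptor CXCR3. Ccl2 and Ccl12 attract monocytes through CCR2, and Ccl5 attracts T cells and monocytes. Cxcl1 attracts neutrophils through CXCR2. Cxcl12 acts through CXCR4 and retains leukocytes and progenitors in tissue, and Cxcl13 acts through CXCR5 and attracts B cells. Ccl6 and Ccl9 are ligands of CCR1 made largely by myeloid cells. In liver, chemokines are made by Kupffer cells, endothelium, stellate cells and hepatocytes, and an adenovirus given into the blood is known to induce several of them.

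Upstream sequences are shown for 5 chemokines that passed the test in some comparison below, because some of them moved together and others did not. They are the 250 bases before the start site, written 5′ to 3′ on the gene's strand, from RefSeq on GRCm38.p6, whose table held 8 of the 10 genes. Capitals mark every match, on either strand, to 3 motifs: the core of the interferon-stimulated response element (GAAA, any 2 bases, GAAA), the gamma-activated site (TTCNNNGAA) and the NF-kB consensus. Matches that overlap run together.
Cxcl10, chr5:92348890-92349139, minus strand: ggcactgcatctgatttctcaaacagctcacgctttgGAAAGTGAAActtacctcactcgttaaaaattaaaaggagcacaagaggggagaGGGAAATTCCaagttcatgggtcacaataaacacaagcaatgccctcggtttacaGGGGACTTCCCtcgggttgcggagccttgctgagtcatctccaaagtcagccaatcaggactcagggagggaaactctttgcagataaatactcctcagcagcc
Cxcl9, chr5:92328080-92328329, minus strand: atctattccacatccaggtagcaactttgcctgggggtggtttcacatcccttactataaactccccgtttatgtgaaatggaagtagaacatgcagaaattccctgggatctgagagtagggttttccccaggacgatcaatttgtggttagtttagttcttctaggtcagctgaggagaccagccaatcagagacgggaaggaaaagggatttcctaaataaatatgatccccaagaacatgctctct
Ccl12, chr11:82101595-82101844, plus strand: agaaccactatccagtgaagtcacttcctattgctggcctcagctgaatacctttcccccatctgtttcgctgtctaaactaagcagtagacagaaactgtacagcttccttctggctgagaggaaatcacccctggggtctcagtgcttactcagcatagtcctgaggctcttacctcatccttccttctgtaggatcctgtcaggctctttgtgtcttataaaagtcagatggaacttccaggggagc
Ccl9, chr11:83578637-83578886, minus strand: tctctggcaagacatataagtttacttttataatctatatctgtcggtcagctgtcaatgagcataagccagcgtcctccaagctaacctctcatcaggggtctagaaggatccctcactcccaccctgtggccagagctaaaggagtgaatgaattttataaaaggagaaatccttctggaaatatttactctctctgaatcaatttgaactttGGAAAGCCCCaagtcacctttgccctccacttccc
Cxcl13, chr5:95956689-95956938, plus strand: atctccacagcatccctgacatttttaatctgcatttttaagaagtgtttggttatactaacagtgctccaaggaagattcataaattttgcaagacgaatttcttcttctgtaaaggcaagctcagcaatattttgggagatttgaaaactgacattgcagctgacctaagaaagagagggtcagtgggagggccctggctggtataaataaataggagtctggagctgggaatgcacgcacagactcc

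Cxcl10 held the interferon-stimulated response element core once (GAAAGTGAAA) and NF-kB matches at 2 places, GGGAAATTCC and the overlapping GGGGACTTCC and GGGACTTCCC. The core was found in 1 of the 8 chemokine sequences and in 2.98% of 32851 sequences of the same length upstream of genes in the table. NF-kB matches were found in 3 of 8, Cxcl10, Ccl9 (GGAAAGCCCC) and Cxcl1, against 7.25% of all. The gamma-activated site was found in 0 of 8 and in 7.02% of all. A match is a run of letters, not a shown binding site, and these windows of Cxcl9, Ccl12 and Cxcl13 hold none of the 3 motifs.

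In fed livers, Cxcl10, Ccl12 and Ccl2 rose after Adeno-Cre, so 3 of 10 chemokines were higher and 0 lower at an adjusted p under 0.05. Of all genes 1.49% passed, 1.08% higher and 0.415% lower. Adjusted p-values are from limma, a linear model with moderated variances fitted to all 12 arrays, with Benjamini-Hochberg adjustment over all 22180 genes. Without adjustment, 5 chemokines were higher and 1 lower at p under 0.05 by limma, against 5.59% and 6.78% of all genes. The arrays of the groups did not overlap for 6 chemokines, 5 higher and 1 lower, against 19.9% of all genes (8.4% higher and 11.5% lower). The median log2 change of the 10 was 0.20, and that of all genes -0.019.

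Cxcl10 had log2 levels of 8.45, 8.65 and 8.72 in Adeno-GFP fed livers (replicates 1, 2 and 3) and of 10.79, 9.87 and 9.79 in Adeno-Cre fed livers. All Adeno-Cre fed arrays lay above all Adeno-GFP fed arrays, and replicate 1 of Adeno-Cre fed was the highest of the 12. The difference was a log2 change of 1.54 (SE 0.23, limma adjusted p = 0.0116), which is 2.91-fold. It missed the threshold without Adeno-GFP fed replicate 1 (log2 change 1.47, adjusted p = 0.0563) or Adeno-GFP fed replicate 3 (log2 change 1.60, adjusted p = 0.0503).

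Cxcl9, the other CXCR3 ligand, had log2 levels of 9.63, 10.03 and 10.05 in Adeno-GFP fed and of 10.86, 10.82 and 10.51 in Adeno-Cre fed livers. These groups did not overlap either, but the log2 change of 0.82 (SE 0.20) did not pass over all genes (limma adjusted p = 0.075). It passed when Adeno-GFP fasted replicate 2, the lowest of the 12 arrays for Cxcl9, was left out of the fit (log2 change 0.82, adjusted p = 0.0127), and with dim genes left out (log2 change 0.82, adjusted p = 0.0388).

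The CCR2 ligands Ccl12 and Ccl2 both rose in fed livers. Ccl12 was at 4.91, 4.97 and 5.05 in Adeno-GFP fed and at 6.85, 6.25 and 6.36 in Adeno-Cre fed livers, a log2 change of 1.51 (SE 0.15, limma adjusted p = 0.00226). The groups lay far apart, and the call held without each of the 12 arrays in turn (adjusted p = 0.00358 to 0.024). The Adeno-GFP levels are under the lowest array median of 6.26 and are not shown to be above background, so the size of this change is uncertain.

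Ccl2 was at 6.48, 6.45 and 6.13 in Adeno-GFP fed and at 7.72, 7.07 and 7.10 in Adeno-Cre fed livers, again without overlap. The log2 change was 0.94 (SE 0.16, limma adjusted p = 0.0176), or 1.92-fold, from control levels near the array medians. It missed the threshold without Adeno-GFP fed replicate 1 (log2 change 1.00, adjusted p = 0.0612) or replicate 3 (log2 change 0.83, adjusted p = 0.0905), with only these groups in the fit (log2 change 0.94, adjusted p = 0.0757), and with all probe sets tested (log2 change 0.94, adjusted p = 0.0569).

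Cxcl9 and the other 6 chemokines did not pass in fed livers. Ccl5 was at 8.60, 8.65 and 8.62 in Adeno-GFP fed and 9.04, 8.96 and 8.74 in Adeno-Cre fed livers, groups that did not overlap (log2 change 0.29, SE 0.09, limma adjusted p = 0.177). Cxcl12 had a negative change, with 10.15, 10.20 and 10.06 in Adeno-GFP fed and 9.98, 9.68 and 9.64 in Adeno-Cre fed livers (log2 change -0.37, SE 0.10, adjusted p = 0.101), also without overlap. It passed with dim genes left out (log2 change -0.37, adjusted p = 0.0424) and with a trended and robust variance prior (log2 change -0.37, adjusted p = 0.0355). The 95% intervals of the log2 change were -0.33 to 0.56 for Ccl6, -0.28 to 0.17 for Ccl9, -0.40 to 0.50 for Cxcl1 and -0.33 to 0.39 for Cxcl13.

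**Figure D1:**
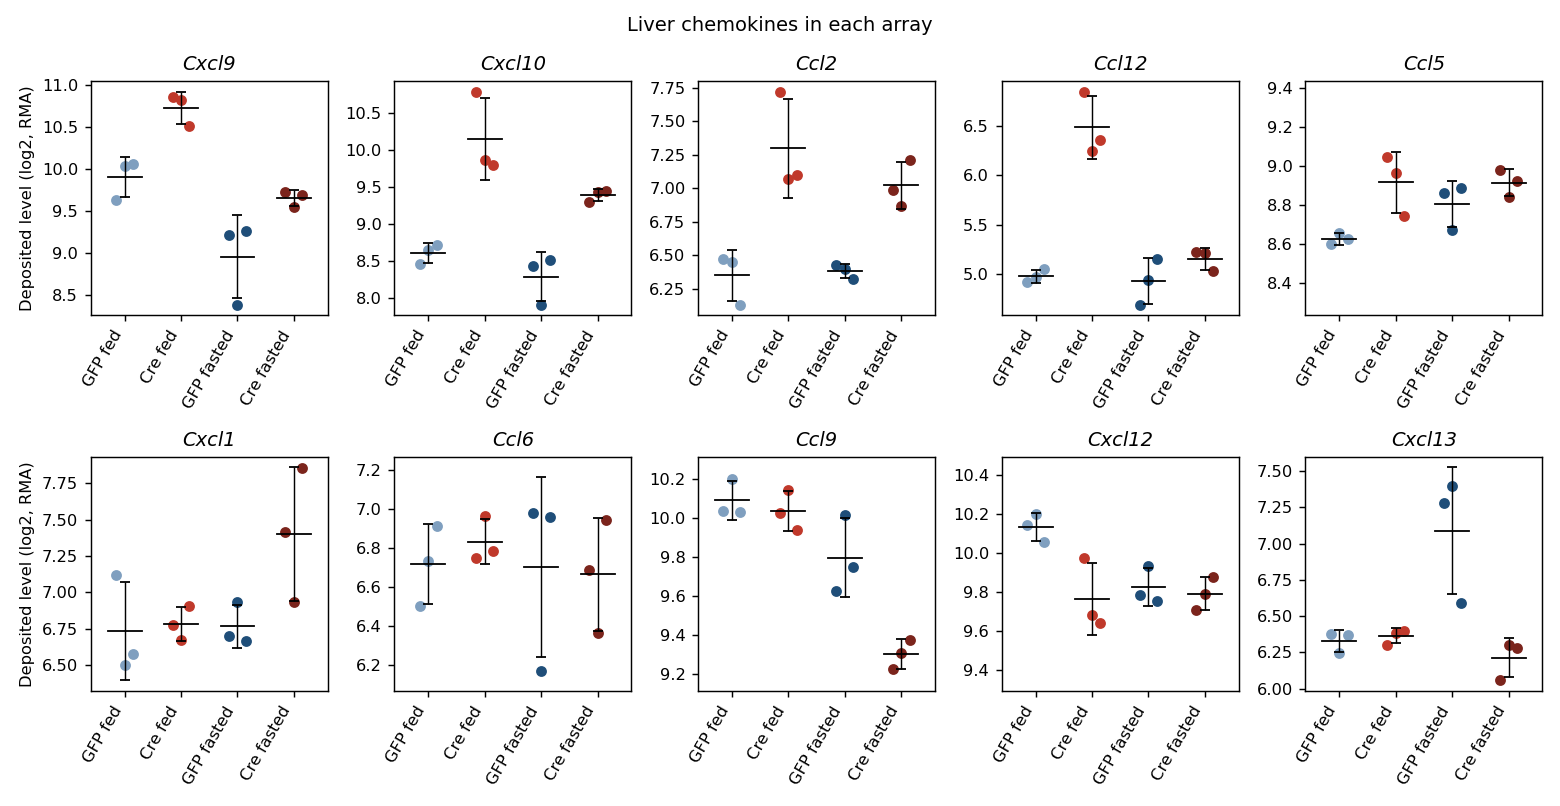
Deposited log2 level (y axis, a separate range per gene) of each chemokine in each of the 12 arrays, by group (x axis). Points are arrays, horizontal lines group means and bars ± 1 SD (n = 3). Ccl12 is high in the 3 Adeno-Cre fed arrays (6.25 to 6.85), while Cxcl13 is highest in Adeno-GFP fasted livers.

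In fasted livers Cxcl10 again rose after Adeno-Cre, and Cxcl13 and Ccl9 fell. Thus 1 of 10 chemokines was higher and 2 were lower, against 2.26% and 0.482% of all genes (2.75% in either direction). At p under 0.05 without adjustment, 4 were higher and 2 lower (8.03% and 8.71% of all genes). Groups did not overlap for 6 of 10, 4 higher and 2 lower, against 20.9% of all genes (9.96% and 10.9%). The median log2 change of the 10 was 0.17, and that of all genes -0.034.

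Cxcl10 was at 8.44, 7.91 and 8.51 in Adeno-GFP fasted and at 9.29, 9.44 and 9.45 in Adeno-Cre fasted livers, which did not overlap. The log2 change was 1.11 (SE 0.23, limma adjusted p = 0.0215), or 2.15-fold. This call ended without Adeno-Cre fasted replicate 1 (log2 change 1.16, adjusted p = 0.0501), replicate 2 (log2 change 1.08, adjusted p = 0.0853) or replicate 3 (log2 change 1.08, adjusted p = 0.0511), without Adeno-GFP fasted replicate 2 (log2 change 0.92, adjusted p = 0.0902), and with all probe sets tested (log2 change 1.11, adjusted p = 0.0588).

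Cxcl13, the B cell attractant, was at 7.28, 7.40 and 6.59 in Adeno-GFP fasted livers and at 6.06, 6.30 and 6.28 in Adeno-Cre fasted livers. All Adeno-Cre arrays lay below all Adeno-GFP arrays, and the third Adeno-GFP array lay well below the other 2 of its group. The log2 change was -0.88 (SE 0.17, limma adjusted p = 0.0124). It missed the threshold without Adeno-GFP fasted replicate 1 (log2 change -0.78, adjusted p = 0.0576) or 2 (log2 change -0.72, adjusted p = 0.0539), without Adeno-Cre fasted replicate 1 (log2 change -0.80, adjusted p = 0.0558) and with only these groups in the fit (log2 change -0.88, adjusted p = 0.087). The Adeno-Cre fasted mean of 6.21 ± 0.14 (SD, n = 3) is under the array medians, so the size of this fall is uncertain. Of 9 measured B cell markers, 0 passed limma's threshold here and 2 were lower at an unadjusted p under 0.05.

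Ccl9, a CCR1 ligand, was at 9.62, 10.02 and 9.75 in Adeno-GFP fasted and at 9.22, 9.31 and 9.38 in Adeno-Cre fasted livers, and the groups did not overlap. The log2 change was -0.49 (SE 0.10, limma adjusted p = 0.0239). The call ended without Adeno-Cre fasted replicate 1 (log2 change -0.45, adjusted p = 0.0894) or 2 (log2 change -0.50, adjusted p = 0.0831), without Adeno-GFP fasted replicate 2 (log2 change -0.38, adjusted p = 0.083) or 3 (log2 change -0.52, adjusted p = 0.0541), with only these groups in the fit (log2 change -0.49, adjusted p = 0.0959) and with all probe sets tested (log2 change -0.49, adjusted p = 0.0591).

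Of the chemokines that did not pass in fasted livers, 3 had groups without overlap. Ccl2 was at 6.43, 6.40 and 6.32 in Adeno-GFP fasted against 6.99, 6.87 and 7.21 in Adeno-Cre fasted livers (log2 change 0.64, SE 0.16, limma adjusted p = 0.057), and it passed in 4 of the 9 other settings, as with only these groups in the fit (log2 change 0.64, adjusted p = 0.0247). Cxcl9 was at 9.22, 8.38 and 9.26 against 9.72, 9.55 and 9.69 (log2 change 0.70, SE 0.20, adjusted p = 0.1). For both, the Adeno-Cre arrays lay above the Adeno-GFP arrays, as in fed livers. Cxcl1, the neutrophil attractant, was at 6.70, 6.93 and 6.66 against 7.41, 6.94 and 7.85 (log2 change 0.64, SE 0.21, adjusted p = 0.141), so that its groups were parted by a small gap only. Without Adeno-Cre fasted replicate 2, the lowest of its group, Cxcl1 passed (log2 change 0.87, adjusted p = 0.0429).

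Ccl12 did not pass in fasted livers, where it was at 4.69, 4.94 and 5.15 in Adeno-GFP and 5.23, 5.21 and 5.02 in Adeno-Cre livers (log2 change 0.23, SE 0.15, limma adjusted p = 0.482). These groups overlapped, under the array medians. The 95% intervals of the log2 change were -0.09 to 0.31 for Ccl5, -0.48 to 0.41 for Ccl6 and -0.25 to 0.18 for Cxcl12.

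**Figure D2:**
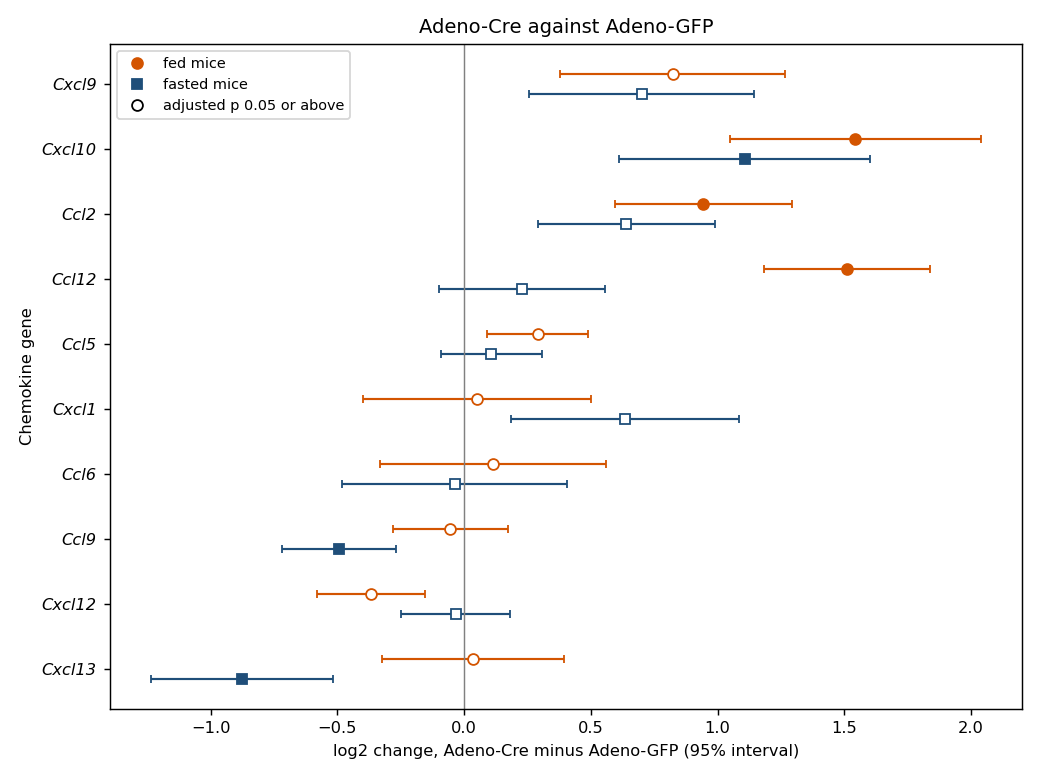
Log2 change of each chemokine, Adeno-Cre minus Adeno-GFP (x axis), with 95% intervals of limma's fit (n = 3 arrays a group), in fed and in fasted mice. Filled symbols passed an adjusted p of 0.05. Cxcl10 is filled in both diets (1.54 and 1.11), Ccl12 and Ccl2 in fed mice, and Cxcl13 and Ccl9, to the left of 0, in fasted mice.

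Averaged over the diets, Cxcl10, Ccl12, Ccl2 and Cxcl9 rose after Adeno-Cre, so 4 of 10 chemokines were higher and 0 lower, against 3.55% and 2.03% of all genes (5.59% in either direction). Without adjustment, 6 were higher and 3 lower at p under 0.05 (8.9% and 10.6% of all genes). The log2 change was 1.33 for Cxcl10 (SE 0.16, limma adjusted p = 0.000445) and 0.87 for Ccl12 (SE 0.11, adjusted p = 0.00046). It was 0.79 for Ccl2 (SE 0.11, adjusted p = 0.00133) and 0.76 for Cxcl9 (SE 0.14, adjusted p = 0.00837). These 4 calls held without each of the 12 arrays in turn. For Ccl12 the average joins 1.51 in fed livers with 0.23 in fasted livers, where it did not pass (limma adjusted p = 0.482). Ccl9 (-0.27, adjusted p = 0.0504) and Cxcl13 (-0.42, adjusted p = 0.0579) did not pass here. Ccl9 passed in 5 of the 8 other settings that fit this average: array weights (log2 change -0.28, adjusted p = 0.038), quantiles (log2 change -0.30, adjusted p = 0.0291), dim genes left out (log2 change -0.27, adjusted p = 0.0203), the replicate block (log2 change -0.27, adjusted p = 0.0322) and a trended and robust variance prior (log2 change -0.27, adjusted p = 0.0166). Cxcl13 passed with array weights (log2 change -0.43, adjusted p = 0.0475) and the trended prior (log2 change -0.42, adjusted p = 0.0363).

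Whether the injection difference depended on diet was tested as an interaction, in which a negative value is a smaller rise or a larger fall in fasted mice. By limma 0 of 10 chemokines passed, as did 0.00451% of all genes. At an unadjusted p under 0.05, 1 chemokine was positive and 3 were negative, against 3.75% and 3.81% of all genes (7.56% in either direction). The interaction of Ccl12 was -1.29 (SE 0.21, unadjusted p = 5.44e-05, limma adjusted p = 0.238). It was -0.91 for Cxcl13 (SE 0.23, unadjusted p = 0.0021, adjusted p = 0.538), which passed without Adeno-GFP fasted replicate 3 (log2 change -1.16, adjusted p = 0.0465). Ccl9 had -0.44 (unadjusted p = 0.0111, limma adjusted p = 0.607) and Cxcl12 0.33 (unadjusted p = 0.0332, adjusted p = 0.645). With all arrays, a difference between the diets was thus not shown for any of the 10, and for Cxcl10 its 95% interval ran from -1.14 to 0.27.

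Fasting was compared with feeding after each virus, in arrays that the injection comparisons also use. After Adeno-GFP, Cxcl13 was higher and Cxcl9 lower in fasted livers, 1 of 10 in each direction, against 1.2% and 1.87% of all genes (3.07% in either direction). Without adjustment 1 was higher and 3 were lower at p under 0.05 (7.87% and 8.81% of all genes). Groups did not overlap for 5 of 10, 2 higher and 3 lower, against 22.2% (11.1% and 11.1%) of all genes.

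Cxcl13 lay at 6.38, 6.24 and 6.37 in fed and at 7.28, 7.40 and 6.59 in fasted Adeno-GFP livers (log2 change 0.76, SE 0.17, limma adjusted p = 0.0288). The fed arrays were close together and the fasted ones spread above them. Leaving out Adeno-GFP fasted replicate 1 (log2 change 0.66, adjusted p = 0.104) or 2 (log2 change 0.60, adjusted p = 0.0936), or Adeno-GFP fed replicate 1 (log2 change 0.78, adjusted p = 0.0745), 2 (log2 change 0.72, adjusted p = 0.113) or 3 (log2 change 0.78, adjusted p = 0.0655), ended the call, as did fitting only these groups (log2 change 0.76, adjusted p = 0.105) and testing all probe sets (log2 change 0.76, adjusted p = 0.0751).

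Cxcl9 went from 9.90 ± 0.24 (SD, n = 3) in fed to 8.95 ± 0.50 in fasted Adeno-GFP livers (log2 change -0.95, SE 0.20, limma adjusted p = 0.0265). The groups did not overlap, and the call ended without Adeno-GFP fed replicate 2 (log2 change -0.89, adjusted p = 0.107) or 3 (log2 change -0.88, adjusted p = 0.0812), with only these groups in the fit (log2 change -0.95, adjusted p = 0.0948) and with all probe sets tested (log2 change -0.95, adjusted p = 0.071). Cxcl12 did not pass (-0.31, SE 0.10, adjusted p = 0.127), although each fasted array (9.76 to 9.94) lay below each fed one (10.06 to 10.20).

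After Adeno-Cre, Ccl12, Ccl9 and Cxcl9 fell with fasting, so 3 of 10 chemokines were lower and 0 higher, against 1.17% and 1.5% of all genes (2.67% in either direction). Without adjustment, 4 were lower and 1 was higher at p under 0.05 (7.61% and 8.36% of all genes, 16% in either direction). Groups did not overlap for 6 of 10, 5 lower and 1 higher, against 21.1% of all genes (9.81% and 11.3%).

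Ccl12 went from 6.49 ± 0.32 (SD, n = 3) in fed to 5.15 ± 0.11 in fasted Adeno-Cre livers (log2 change -1.34, SE 0.15, limma adjusted p = 0.00135). Ccl9 went from 10.03 ± 0.10 to 9.30 ± 0.08 (log2 change -0.73, SE 0.10, adjusted p = 0.00424). Both calls held without each of the 12 arrays in turn. Cxcl9 went from 10.73 ± 0.19 to 9.65 ± 0.09 (log2 change -1.08, SE 0.20, adjusted p = 0.0173), a call that ended without Adeno-Cre fasted replicate 1 (log2 change -1.11, adjusted p = 0.0567) or 2 (log2 change -1.02, adjusted p = 0.0685) or Adeno-Cre fed replicate 1 (log2 change -1.01, adjusted p = 0.0694) or 2 (log2 change -1.03, adjusted p = 0.0576), and with all probe sets tested (log2 change -1.08, adjusted p = 0.0516). Cxcl10 (-0.76, SE 0.23, adjusted p = 0.114) and Cxcl1 (0.62, SE 0.21, adjusted p = 0.156) did not pass, though their groups did not overlap. In the same comparison 5 of 17 type I interferon genes fell and 0 rose (median -0.59), with 11 lower at an unadjusted p under 0.05. Of 10 Kupffer cell markers 9 had negative changes (median -0.39, against -0.001 for all genes). Of these markers 0 passed limma's threshold and 3 were lower at an unadjusted p under 0.05, and 3 of 10 stellate cell markers fell. Their part in the levels of Ccl12, Ccl9 and Cxcl9 was not tested.

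**Figure D3:**
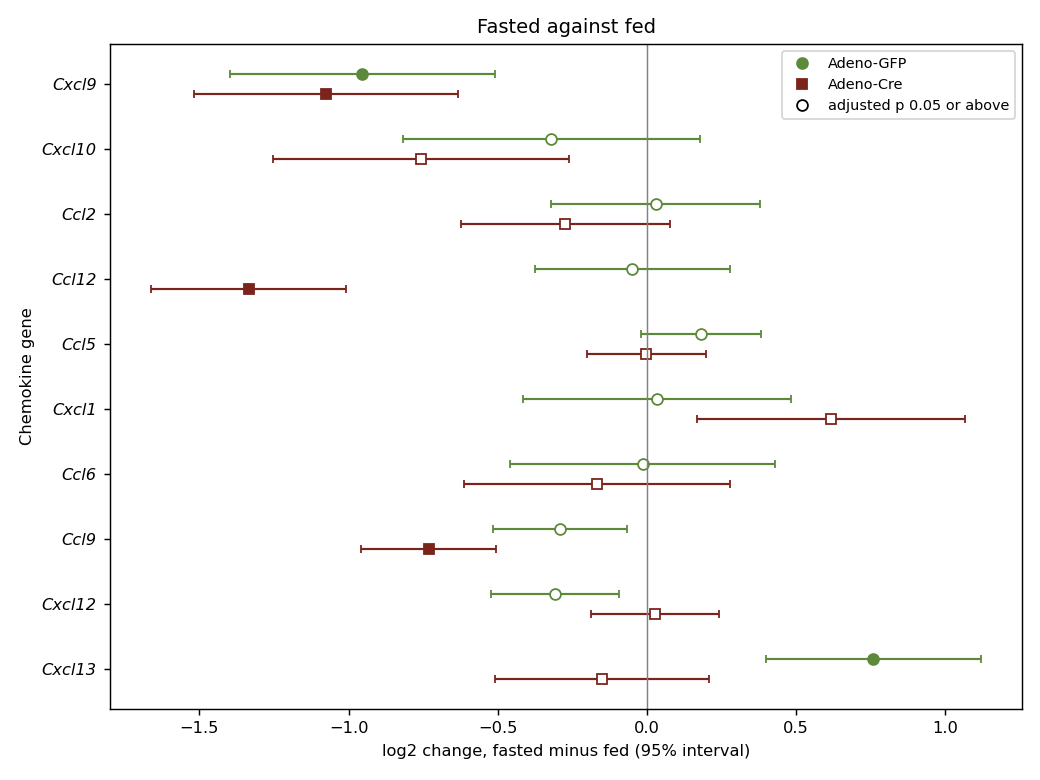
Log2 change of each chemokine, fasted minus fed (x axis), with 95% intervals of limma's fit (n = 3 arrays a group), after Adeno-GFP and after Adeno-Cre. Filled symbols passed an adjusted p of 0.05. Cxcl9 lies to the left of 0 and is filled after both viruses (-0.95 and -1.08), and Cxcl13 is filled to the right of 0 after Adeno-GFP (0.76).

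The order of the 4 groups differed from gene to gene. Cxcl10 was ordered Adeno-Cre fed (10.15 ± 0.56, SD, n = 3), Adeno-Cre fasted (9.39 ± 0.09), Adeno-GFP fed (8.61 ± 0.14) and Adeno-GFP fasted (8.29 ± 0.33), and of neighbours in this order only the last pair overlapped. For Cxcl9 the order was Adeno-Cre fed, Adeno-GFP fed, Adeno-Cre fasted and Adeno-GFP fasted, with overlap between the middle pair. Ccl2 was higher in all 6 Adeno-Cre arrays (6.87 to 7.72) than in all 6 Adeno-GFP arrays (6.13 to 6.48), with overlap between the diets of either virus. Ccl12 had Adeno-Cre fed apart, at the top, and the other 3 groups overlapped with their neighbours. Ccl9 had Adeno-Cre fasted apart at the bottom, while Cxcl13 had Adeno-GFP fasted and Cxcl12 Adeno-GFP fed apart at the top. Ccl5 was lowest in Adeno-GFP fed livers, without overlap with the next group, and Cxcl1 was highest in Adeno-Cre fasted livers. In Ccl6, which ran from 6.17 to 6.98, all neighbouring groups overlapped.

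Several of these genes lie side by side in the genome, and their neighbours did not all move with them. In the RefSeq gene order on GRCm38.p6, Ccl2, Ccl7, Ccl11, Ccl12, Ccl8 and Ccl1 follow each other on chromosome 11. Between Ccl2 and Ccl12, Ccl7, another CCR2 ligand, had a log2 change of 0.04 (SE 0.13, limma adjusted p = 0.951) in fed livers and the eotaxin gene Ccl11 one of -0.03 (SE 0.13, adjusted p = 0.959). Next to Ccl12 on its other side, Ccl8 had 0.18 (SE 0.19, adjusted p = 0.776). On chromosome 5, Cxcl11, which encodes another CXCR3 ligand in many mammals and is a transcribed pseudogene in this RefSeq annotation, lies beside Cxcl10. Its log2 change was -0.03 (SE 0.09) in fed and -0.19 (SE 0.09) in fasted livers, neither past the threshold. Ccl5, Ccl9, Ccl6, Ccl3 and Ccl4 form another run on chromosome 11, in which Ccl9 fell in fasted livers while Ccl6 had -0.04 (SE 0.20) and Ccl3 0.07 (SE 0.10).

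**Figure D4:**
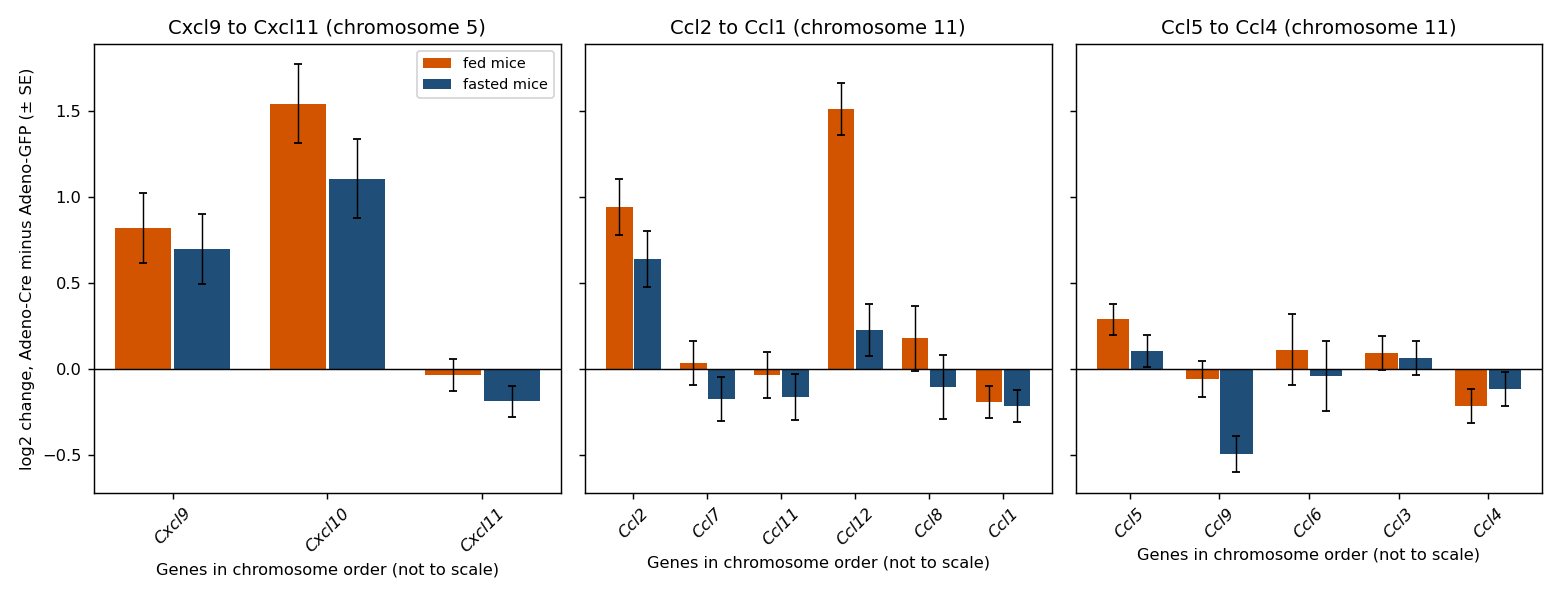
Log2 change, Adeno-Cre minus Adeno-GFP (y axis, error bars ± SE of limma's fit), of genes in 3 chemokine clusters (x axis), in chromosome order and not to scale, in fed and fasted mice. Ccl2 and Ccl12 stand at 0.94 and 1.51 in fed mice, with Ccl7 and Ccl11 between them near 0 (0.04 and -0.03).

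Of 26 other measured chemokine ligands, 0 passed limma's threshold after Adeno-Cre in either diet. At an unadjusted p under 0.05 the counts were 0 in fed livers and 3, all lower, in fasted livers. Their median log2 change was -0.06 in fed and -0.16 in fasted livers, where 23 of 26 changes were negative. With fasting after Adeno-GFP, 1 of 26 passed: Cxcl14, a CXC chemokine of epithelia (-0.39, SE 0.09, adjusted p = 0.0414). That call held only without an Adeno-Cre fasted array and ended in the other 9 of the 12 fits that leave out an array (adjusted p = 0.0166 to 0.131), and with the replicate block (log2 change -0.39, adjusted p = 0.0657). The Cxcl14 call also ended with only these groups in the fit (limma adjusted p = 0.0537) and with all probe sets tested (adjusted p = 0.0916).

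Of 17 chemokine receptor genes, 0 passed by limma in any of the 6 comparisons. At an unadjusted p under 0.05, 0 differed after Adeno-Cre in fed livers and 1, lower, in fasted livers. Averaged over diets that was 2, both lower. With fasting it was 2 after Adeno-GFP, 1 in each direction, and 1, higher, after Adeno-Cre, and for the interaction it was 0. Cxcr3, the receptor of Cxcl9 and Cxcl10, had a log2 change of -0.15 (SE 0.12) in fed and -0.12 (SE 0.12) in fasted livers. Ccr2, the receptor of Ccl2 and Ccl12, had -0.19 (SE 0.13) and -0.11 (SE 0.13). Of 5 atypical receptors, which bind chemokines without G protein signalling, Ackr2, a scavenger of inflammatory CC chemokines, fell after Adeno-Cre averaged over diets (-0.27, SE 0.07, limma adjusted p = 0.043). That call held only without replicate 3 of Adeno-Cre fasted, replicate 2 of Adeno-Cre fed or replicate 2 of Adeno-GFP fasted and ended in the other 9 of the 12 fits (adjusted p = 0.0224 to 0.102), and with the replicate block (log2 change -0.27, adjusted p = 0.0666). The Ackr2 call also ended with quantiles (limma adjusted p = 0.0503), median centring (adjusted p = 0.0539) and all probe sets tested (adjusted p = 0.0875).

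Lists of interferon and NF-kB genes, which hold both signalling genes and genes that such signals induce, were counted in the same way. Among 17 genes of type I interferon signalling, 8 rose and 0 fell after Adeno-Cre in fed livers (median log2 change 0.75). In fasted livers 0 passed, with 0 at an unadjusted p under 0.05 by limma and a median of 0.01. In the interaction 0 passed, and 12 were negative at an unadjusted p under 0.05. Isg15, a ubiquitin-like protein induced by interferon, was at 7.49, 7.50 and 7.19 in Adeno-GFP fed and 10.13, 8.65 and 9.00 in Adeno-Cre fed livers (log2 change 1.87, SE 0.33, limma adjusted p = 0.0192). That call ended without Adeno-Cre fed replicate 3 (log2 change 2.00, adjusted p = 0.052) or Adeno-GFP fed replicate 1 (log2 change 1.92, adjusted p = 0.0726) or 3 (log2 change 1.77, adjusted p = 0.0961). Isg15 also missed the threshold with only these groups in the fit (limma adjusted p = 0.0588) and with all probe sets tested (adjusted p = 0.065). It was at 7.65, 7.24 and 7.80 in Adeno-GFP fasted and 8.20, 7.69 and 7.23 in Adeno-Cre fasted livers, which overlapped (0.14, SE 0.33, adjusted p = 0.868). Adeno-Cre fed replicate 1, the highest array for Cxcl9, Cxcl10, Ccl2, Ccl5 and Ccl12, was also the highest for Isg15.

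Gbp3, an interferon-induced GTPase, rose after Adeno-Cre in fed livers (log2 change 1.56, SE 0.27, limma adjusted p = 0.0185), a call that ended without Adeno-Cre fed replicate 1 (log2 change 1.30, adjusted p = 0.0603) or Adeno-GFP fed replicate 1 (log2 change 1.42, adjusted p = 0.0815) or 3 (log2 change 1.54, adjusted p = 0.0874). The Gbp3 call also ended with all probe sets tested (limma adjusted p = 0.0632). Irf1, a transcription factor of interferon responses, had a log2 change of 0.11 (SE 0.09) in fed and 0.13 (SE 0.09) in fasted livers. Of 19 NF-kB and inflammatory cytokine genes, 0 passed in either diet by limma. At an unadjusted p under 0.05, 1 was higher and 1 lower in fed livers, and 2 were higher and 1 lower in fasted livers.

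Marker genes of cells that make or follow chemokines were set beside these results. In bulk liver, fewer cells of a type and less RNA per cell cannot be told apart. Ly6c2, a marker of inflammatory monocytes, which follow Ccl2 and Ccl12, was at 4.88, 5.18 and 5.05 in Adeno-GFP fed and 6.34, 5.78 and 5.43 in Adeno-Cre fed livers. Averaged over diets it was 0.73 higher after Adeno-Cre (SE 0.13, limma adjusted p = 0.00593), the 1 of 10 monocyte markers that rose. Its levels in all arrays but Adeno-Cre fed replicate 1 (6.34) are under the lowest array median of 6.26. They are not shown to be above background, so the size of this change is uncertain. In fed or in fasted livers alone, 0 of 10 monocyte markers passed by limma. Of the 10 markers, 5 had positive and 5 negative changes averaged over diets (median 0.03). Another of the 10, Fn1, which hepatocytes also express, fell (-0.25, adjusted p = 0.0172), a call that ended without Adeno-GFP fed replicate 3 (log2 change -0.23, adjusted p = 0.0503). The summed linear level of the monocyte list was 9141 to 9651 in Adeno-GFP fed and 7863 to 8596 in Adeno-Cre fed livers, and 8386 to 9290 and 7804 to 7922 in fasted ones. Fn1 and F10, which hepatocytes make, have the highest levels in that sum, and the mean log2 level of the list lay the other way, at 7.69 to 7.73 in Adeno-GFP fed and 7.77 to 7.85 in Adeno-Cre fed livers.

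Gzma, a granzyme of NK and T cells, the cells that follow Cxcl9 and Cxcl10, rose after Adeno-Cre in fed (0.71, SE 0.14, limma adjusted p = 0.0307) and fasted livers (0.65, SE 0.14, adjusted p = 0.0295). It was the 1 of 9 measured NK cell markers that passed in each, and the calls ended without any 1 of the fed arrays but Adeno-Cre fed replicate 2, and without any 1 of the 6 fasted arrays (adjusted p up to 0.132 and 0.11). With all probe sets tested the fed and fasted calls also ended (limma adjusted p = 0.0891 and 0.0719). Fitting only the groups compared ended the fed call (adjusted p = 0.118). Averaged over diets, Gzma was also higher after Adeno-Cre. That call held without each of the 12 arrays in turn (limma adjusted p = 0.000661 to 0.00633), and 0 other settings ended it. The NK list summed to 672 to 704 in Adeno-GFP fed and 736 to 896 in Adeno-Cre fed livers, and to 674 to 706 and 690 to 739 in fasted ones. Of its 9 measured genes, 3 had a mean above the array medians. Of 8 T cell markers 0 passed by limma in either diet, with 0 at an unadjusted p under 0.05, and the list summed to 554 to 565 and 573 to 589 in fed livers and to 536 to 561 and 510 to 563 in fasted ones. Among these 8 genes, 2 had a mean above the array medians. Of 10 neutrophil markers, which bear on Cxcl1, 0 passed in either diet and 1 was lower at an unadjusted p under 0.05 in fasted livers. That list summed to 478 to 548 in Adeno-GFP fasted and 428 to 564 in Adeno-Cre fasted livers, and 1 of its 10 genes had a mean above the array medians. No marker was listed at 0, and the part of these cells in the chemokine levels was not tested.

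Kupffer cell markers were read beside Cxcl13 and Ccl9 in fasted livers. The log2 change after Adeno-Cre was negative for 10 of 10 (median -0.38), while 0 passed limma's threshold and 1 had an unadjusted p under 0.05. Their summed linear level was 2219 to 4102 in Adeno-GFP fasted and 1674 to 2510 in Adeno-Cre fasted livers, and 2706 to 2908 and 1975 to 3395 in the fed groups. Negative changes in fasted livers were not particular to Kupffer cell markers. They were seen in 8 of 9 hepatocyte, 8 of 9 dendritic cell, 7 of 8 T cell and 8 of 10 neutrophil markers. Monocyte markers had 4 of 10, and the median of all genes was -0.034. Beside Cxcl12 in fed livers, the log2 change of endothelial markers was negative for 10 of 10 (median -0.31, against -0.019 for all genes). Of these markers 0 passed limma's threshold and 7 had an unadjusted p under 0.05. They summed to 5373 to 5699 in Adeno-GFP fed and 3587 to 5211 in Adeno-Cre fed livers, and to 3981 to 5267 in Adeno-GFP fasted livers. Of 10 stellate cell markers, 9 had negative changes in fed livers (median -0.19), with 0 past the threshold and 5 at an unadjusted p under 0.05, and they summed to 6541 to 6910 and 5282 to 6207. In fasted livers 10 of 10 were negative (median -0.24), with 0 past the threshold and 5 at an unadjusted p under 0.05. Averaged over diets 2 fell, Reln (-0.43, limma adjusted p = 0.00508) and Ecm1 (-0.35, adjusted p = 0.0305), the latter in 5 of the 12 fits that leave out an array. The part of these cells in the levels of Cxcl13, Ccl9 and Cxcl12 was not tested.

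The genes with the most similar pattern were taken by Pearson correlation of log2 levels over the 12 arrays. These are the highest values among all genes but predicted ones, given as a description, over arrays that share group differences. For Cxcl10 they were Nt5c3 (0.968), Rttn (0.963) and Igtp (0.955), the last an interferon-induced GTPase. For Cxcl9 they were Mpeg1 (0.958), which encodes the macrophage protein perforin-2, Pgd (0.958) and Ifitm3 (0.953), an interferon-induced antiviral protein. For Ccl12 they were Tor1aip1 (0.959), Eif2ak2 (0.956), the double-stranded RNA sensor PKR, and Iigp1 (0.952), an interferon-induced GTPase. Ccl2 was most like Rttn (0.949), Nt5c3 (0.941) and Cdca3 (0.922). Ccl9 was most like Srcap (0.957), Nfat5 (0.956) and Prok1 (0.945), and Cxcl12 most like Apc (0.922), Nfib (0.895) and Adcy4 (0.892). The closest gene was Pdha2 (0.912) for Cxcl13, Gtsf1 (0.935) for Cxcl1, Ascc3 (0.9) for Ccl5 and Lgals3 (0.848) for Ccl6, the last being the lectin galectin-3 of macrophages. Among the 10 chemokines, Cxcl10 and Ccl2 were most alike (0.917), followed by Cxcl10 with Ccl12 (0.869) and with Cxcl9 (0.83). After group means were subtracted, the same 3 pairs had 0.6, 0.648 and 0.659. Other pairs were then higher: Cxcl9 with Ccl6 (0.859), Cxcl12 with Ccl2 (0.849, against -0.338 over the 12 arrays), Cxcl9 with Ccl5 (0.806) and Cxcl10 with Ccl5 (0.731). Adeno-GFP fasted replicate 2 was the lowest of the 12 arrays for both Cxcl9 (8.38) and Ccl6 (6.17). Adeno-Cre fed replicate 1 was the highest of its group for both Ccl2 (7.72) and Cxcl12 (9.98). These pairs were not computed again without single arrays.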

How the data were processed

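The deposited values are log2 expression, 1 value for each probe set and array. RMA is the tool that the submitters' processing notes name, a method that subtracts background, gives all arrays 1 distribution and summarises probes; its version is not given in the sources used here. A shift shared by all genes would be removed and changes of dim genes compressed. Array medians were 6.26 to 6.33, and over all genes the correlations within groups were 0.991 to 0.994. No detection calls were made.

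Of 41345 probe sets, 23521 name exactly 1 gene, 1814 name several and 16010 are unnamed. A gene was read from the probe set with the highest mean over the 12 arrays, and each of the 10 chemokines had 1 probe set. Groups came from the labels. Group means were fitted in limma 3.58.1 (R 4.3.3) with eBayes, Benjamini-Hochberg adjustment and a threshold of 0.05, and the code was tested on simulated data. Gene lists were described by counts and medians.

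All 10 members are named. From the other lists, genes past the threshold could be named, and for each member the 3 most correlated genes. Some items are not reported here. Cxcr3, Ccr2, Irf1, Gbp3, genomic neighbours and which of the passing genes to describe were chosen after values were seen. The members and lists were chosen with earlier results of these data known. Alternatives were 9 other settings and leaving out each of the 12 arrays. Deviations of same-numbered arrays of different groups correlated at -0.091 to 0.147, and those of differently numbered arrays at -0.179 to 0.129. These ranges overlap, and whether the replicate numbers pair the samples was not tested.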

Additional observations from a re-analysis of the deposited data

Results flagged for a closer look

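Cxcl13 is listed because its fasted arrays lay on opposite sides of its fed arrays after the 2 viruses, without overlap in either: all Adeno-GFP fasted arrays lay above all Adeno-GFP fed arrays (log2 change 0.76), and all Adeno-Cre fasted arrays lay below all Adeno-Cre fed arrays (-0.15), the latter by the narrow gap between 6.300 and 6.304. The difference between these changes, -0.91, did not pass limma's interaction test over all genes (adjusted p = 0.538). Without Adeno-GFP fasted replicate 3 it did (log2 change -1.16, adjusted p = 0.0465). Levels of Cxcl13 are close to the array medians.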

How the results depend on the processing

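Of the 15 chemokine changes past the threshold, 7 held without each array and in each of the 9 other settings that tested them (leaving out dim genes drops Ccl12 and Cxcl13, so it did not test 3 of the 7), and 0 turned sign. The counts of the 10 chemokines past the threshold were 3 in fed and 3 in fasted livers, 4 in the mean of diets, 2 for fasting after Adeno-GFP, 3 for fasting after Adeno-Cre and 0 for the interaction. The counts in other settings also depend on how many of all genes passed there, which is not given here. A rise or fall in a count is therefore not a result about the chemokines. In the same order, testing all probe sets gave 2, 1, 4, 0, 2 and 0, and a trended and robust prior gave 4, 4, 6, 2, 3 and 0. Leaving out dim genes, with Ccl12 and Cxcl13 not among the genes tested, gave 4, 3, 5, 1, 2 and 0. Array weights gave 3, 3, 6, 2, 3 and 0, quantiles 3, 3, 5, 2, 3 and 0, and median centring 3, 4, 4, 2, 3 and 0. Fitting only the groups compared gave 2 in fed, 2 in fasted, 0 for fasting after Adeno-GFP and 3 after Adeno-Cre. The mean of a gene's probe sets changed no count. It leaves the values of the 10 chemokines, with 1 probe set each, as they were, so it is a weak test of their calls. Leaving out 1 array at a time gave 1 to 4 for injection in fed livers, 0 to 4 in fasted livers, 0 to 2 for fasting after Adeno-GFP and 0 to 1 for the interaction. The replicate number as a block gave 3, 3, 5, 2, 3 and 0, the 1 change among the 10 chemokines being Ccl9 in the mean of diets (adjusted p = 0.0322). It also ended calls of other named genes, among them Cxcl14 and Ackr2. The log2 changes that turned sign were all uncalled. Array weights gave 0.00978 for Ccl6 with fasting after Adeno-GFP and 0.00584 for Ccl5 with fasting after Adeno-Cre. Without 1 array, the log2 change after Adeno-Cre in fed livers ran from -0.107 to 0.00239 for Ccl9, -0.062 to 0.246 for Cxcl1 and -0.00879 to 0.0642 for Cxcl13. In fasted livers it ran from -0.303 to 0.113 for Ccl6 and -0.0756 to 0.0214 for Cxcl12, and in the mean of diets from -0.0945 to 0.113 for Ccl6. With fasting after Adeno-GFP it ran from -0.163 to 0.0708 for Ccl12, -0.0805 to 0.0909 for Ccl2, -0.152 to 0.251 for Ccl6 and -0.0813 to 0.227 for Cxcl1. With fasting after Adeno-Cre it ran from -0.0892 to 0.0617 for Ccl5 and -0.0365 to 0.132 for Cxcl12, and the interaction of Cxcl9 from -0.407 to 0.0311. The cause of these moves was not tested. Of 36 calls on other named genes, 11 held without each array. With no detection calls, changes of the dimmest genes, Ccl12 and Cxcl13, are the least certain in size.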
